A study of Mus musculus with 6 samples.

Results

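The genes described here encode the matrix metalloproteinases (MMPs), their tissue inhibitors (TIMPs), and the ADAMTS proteases with the related ADAMTS-like proteins. They were taken by name as the protein-coding rows of the count table called *Mmp*, *Timp1* to *Timp4*, *Adamts* or *Adamtsl*, which gave 49 of the 41721 rows: 21 *Mmp*, 4 *Timp*, 19 *Adamts* and 5 *Adamtsl* genes. They were measured by RNA sequencing of cultured vascular smooth muscle cells of the mouse abdominal aorta (MASMCs), in 3 libraries of *Pdk4*fl/fl cells and 3 libraries of *Pdk4*SMKO cells. Both alleles of *Pdk4*, a kinase that inhibits the pyruvate dehydrogenase complex, carry loxP sites around exons 4 to 6 in both genotypes. *Pdk4*SMKO mice also carry *Myh11*-Cre, a tamoxifen-inducible recombinase driven by a smooth muscle promoter, and mice of both genotypes received tamoxifen at 6 weeks of age for 5 days. Cells were isolated with collagenase from mice 10 weeks old, used at passages 4 to 8, and exposed to Ang II in all 6 libraries, for 48 h at 1 μM by the study's methods. No library without Ang II was analysed here, so the values compare the genotypes under Ang II. The labels do not say which cultures or animals the replicates came from, and p-values measure the spread between these libraries.

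MMPs are zinc proteases of the extracellular matrix, made as inactive precursors and activated by cleavage. Collagenases such as MMP13 cut fibrillar collagen, gelatinases (MMP2 and MMP9) cut denatured and basement membrane collagen, stromelysins (MMP3 and MMP10) have a broad range of substrates, and MMP12 cuts elastin. TIMPs bind and block active MMPs, and TIMP3 also blocks several ADAM and ADAMTS proteases. ADAMTS proteases cut proteoglycans, trim procollagens or act on other matrix and plasma proteins, while ADAMTS-like proteins lack the protease domain. In the aortic wall these enzymes turn over the elastin and collagen that give it strength.

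Libraries held 16526044 to 22481670 counts, and a count of 3, taken as the floor of detection, corresponded to 0.132 to 0.227 CPM, counts scaled to a common library total. The scaling used the TMM factors of edgeR, which lay between 0.784 and 0.838 in *Pdk4*fl/fl and between 1.21 and 1.26 in *Pdk4*SMKO libraries. The targeted gene fell from 570, 639 and 421 counts to 110, 182 and 141 counts in *Pdk4*SMKO libraries, a log2 fold change of -2.34 (SE 0.22, edgeR adjusted p = 4.5e-06). The Cre transgene is Y-linked by the study's methods, yet *Xist*, the RNA of the inactive X chromosome, had 610, 347 and 321 counts in *Pdk4*SMKO and 3, 4 and 5 in *Pdk4*fl/fl libraries. By *Xist* alone, the libraries labelled *Pdk4*SMKO do not look purely male, and no Y-linked gene was read here. This difference cannot be told apart from genotype since it holds for all 3 of them. Markers of cell types were called by the rule given in the next paragraph, by which 32.8% of all genes tested were higher and 26.5% lower. Of 8 smooth muscle markers, 5 were higher and 3 lower in *Pdk4*SMKO (*Acta2* 1.59, *Tagln* -2.26 and *Smtn* -2.28 on the log2 scale), and *Myh11* was low in both genotypes (0.613 and 2.39 CPM). All 7 mesothelial markers tested were higher, with a summed level of 74.2 to 99.99 CPM in *Pdk4*fl/fl and 723 to 1325 CPM in *Pdk4*SMKO. They included *Msln* (6.00), and *Upk1b* and *Krt18*, which had at most 3 counts in a *Pdk4*fl/fl library and at least 304 in a *Pdk4*SMKO library. *Upk1b*, *Krt18*, *Wt1* and *Lrrn4*, with at most 5 counts in a *Pdk4*fl/fl library, had enough counts for the test through *Pdk4*SMKO alone. They could be called higher or not at all, and so could *Des* of the smooth muscle and *Lum* of the fibroblast list. Of 8 fibroblast markers 5 were higher, led by *Ly6a* (5.36), *Col3a1* (5.14) and *Col1a1* (3.25). *Dpt* was lower (-1.02), and *Pdgfra* (0.35) and *Pi16* (-0.34) were not called. The summed level of this list was 646 to 873 CPM in *Pdk4*fl/fl and 5920.0 to 7844 CPM in *Pdk4*SMKO. Most of it was *Col1a1*, with means of 620 and 5901 CPM. Of 6 endothelial markers 2 had enough counts to be tested and both were lower in *Pdk4*SMKO, *Kdr* (-2.47) and *Vwf* (-1.13), with a summed level of 14.1 to 23.7 against 2.84 to 5.62 CPM, while *Cdh5* had at most 1 count per library. In bulk RNA, fewer cells of a type and less RNA per cell cannot be told apart, and the part that other cell types play in the results was not tested.

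Of the 49 genes, 31 had enough counts to be tested by edgeR's quasi-likelihood test, and 18 did not, 6 of them with 0 counts in every library. A gene was called at a Benjamini-Hochberg adjusted p under 0.05, over the 14085 genes tested, and a fold change of at least 2. By this rule 17 of the 31 were higher and 5 lower in *Pdk4*SMKO, while 9 were not called. Among all genes tested, 59.3% were called, 32.8% higher and 26.5% lower, so that a call in itself does not set a gene of these families apart. Of the 31 genes, 25 passed the limit on counts in both genotypes, 5 through *Pdk4*SMKO alone (*Mmp12*, *Mmp15*, *Mmp17*, *Mmp24* and *Adamts15*) and *Mmp9* through *Pdk4*fl/fl alone. For genes that passed through 1 genotype alone, the limit itself favoured a call toward that genotype. The median log2 fold change was 1.12 over these 31 genes and 0.12 over all genes tested. The 3 libraries of a genotype lay wholly above or below the 3 of the other for 25 of the 31 genes, 19 with *Pdk4*SMKO higher and 6 lower, against 43.5% higher and 38.3% lower among all genes tested (81.8% in either direction). An exact permutation test of 3 libraries against 3 cannot give a two-sided p under 0.1.

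**Figure D1:**
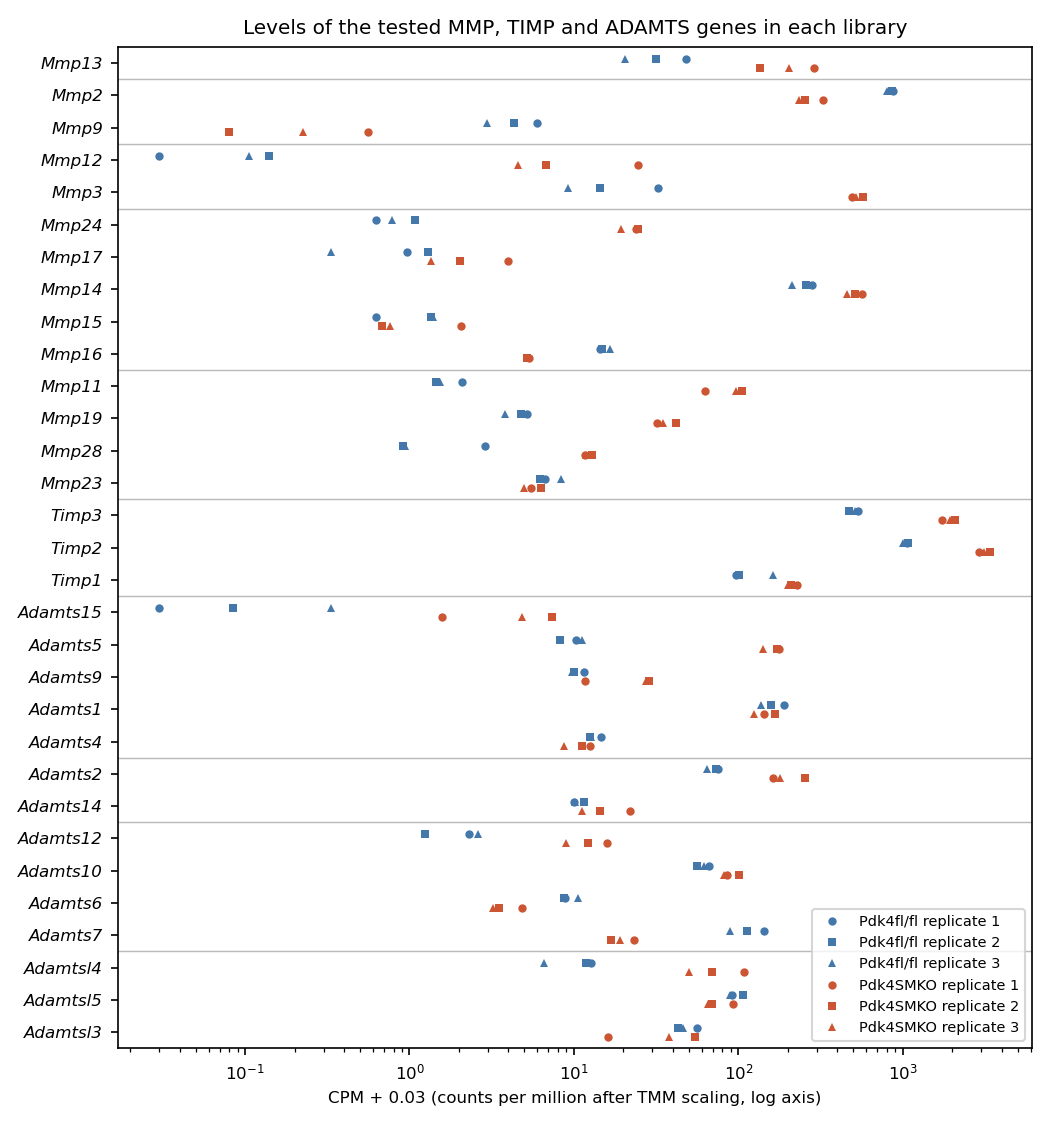
Level of each of the 31 tested genes in each library, in CPM after TMM scaling with a small offset, on a log axis. Blue symbols are *Pdk4*fl/fl and red symbols *Pdk4*SMKO libraries, the symbol shape gives the replicate, and horizontal lines separate the roles. *Mmp2*, *Mmp9*, *Mmp16*, *Adamts6* and *Adamts7* lie lower in all 3 *Pdk4*SMKO libraries, and *Mmp3*, *Mmp11*, *Mmp12* and *Adamts5* lie higher.

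Both gelatinases fell in *Pdk4*SMKO cells. *Mmp2* (MGP_C57BL6NJ_G0034432, chromosome 8 from 97609424 to 97637355 in the C57BL/6NJ coordinates of the table) had 874, 854 and 799 CPM in *Pdk4*fl/fl and 325, 255 and 235 CPM in *Pdk4*SMKO libraries. The groups lay far apart, with means of 843 ± 39.0 and 272 ± 47.2 CPM (SD, n = 3), 3.10-fold lower in *Pdk4*SMKO. The log2 fold change was -1.63 (SE 0.15, edgeR adjusted p = 3.1e-06), and it stayed between -1.77 and -1.53 when any 1 library was left out. *Mmp9*, made by activated and inflammatory cells, was at a much lower level, with counts of 89, 78 and 39 against 12, 1 and 4 in *Pdk4*SMKO libraries, or 5.93, 4.28 and 2.95 against 0.527, 0.0498 and 0.196 CPM. Its log2 fold change was -4.02 (SE 0.57, edgeR adjusted p = 9.4e-05) and -5.07 without *Pdk4*SMKO replicate 1, the highest of its group.

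*Mmp3* and *Mmp13*, a stromelysin and a collagenase, rose. *Mmp3* (stromelysin 1) had 32.3, 14.3 and 9.23 CPM in *Pdk4*fl/fl and 494, 570 and 522 CPM in *Pdk4*SMKO libraries. The *Pdk4*SMKO values lay close together, while the *Pdk4*fl/fl values spread over a range wider than their mean of 18.6 ± 12.1 CPM (SD, n = 3) against 529 ± 38.4, a 28.4-fold difference. The log2 fold change was 4.83 (SE 0.39, edgeR adjusted p = 1.6e-06), and 5.47 without *Pdk4*fl/fl replicate 1. *Mmp13* (collagenase 3) had 47.8, 31.6 and 20.4 CPM in *Pdk4*fl/fl and 289, 136 and 204 CPM in *Pdk4*SMKO libraries, with a log2 fold change of 2.65 (SE 0.33, edgeR adjusted p = 3.6e-05). Its lowest *Pdk4*SMKO library was still above its highest *Pdk4*fl/fl library. *Mmp8*, a collagenase of neutrophils, had at most 6 counts in a library and was not tested.

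*Mmp12*, the metalloelastase first known from macrophages, was near 0 in *Pdk4*fl/fl and rose in *Pdk4*SMKO. Its counts were 0, 2 and 1 in the *Pdk4*fl/fl libraries against 559, 136 and 93 in the *Pdk4*SMKO libraries, the latter 24.5, 6.77 and 4.56 CPM. Measured against the floor of 3 counts per library, this was at least 60.6-fold higher, and at least 28.7-fold higher without *Pdk4*SMKO replicate 1, which held 4.33 times the mean of the other *Pdk4*SMKO libraries. The fitted log2 fold change was 7.40 (SE 0.97, edgeR adjusted p = 5.3e-05), 6.32 without that library. Markers of macrophages differed in the same libraries. Of 8 genes, 7 were found by name and 6 tested, 5 of them higher and *Cd68* lower (-2.85) in *Pdk4*SMKO. Over all genes tested the shares were 32.8% higher and 26.5% lower. The defining markers *Adgre1*, *Tyrobp*, *C1qa* and *C1qb* were at 0 in all *Pdk4*fl/fl libraries, and *C1qa* had 125, 58 and 35 counts in *Pdk4*SMKO libraries. These and *Csf1r*, with at most 4 counts in a *Pdk4*fl/fl library, passed the limit on counts through *Pdk4*SMKO alone. The 5 genes could therefore not have been called lower, and their number cannot be weighed against those shares. Summed over the list, macrophage markers came to 38, 34.8 and 21.4 CPM in *Pdk4*fl/fl libraries, most of it *Cd68*, and to 30.5, 13.5 and 9.71 CPM in *Pdk4*SMKO libraries. *Lyz2*, in 2 rows without a gene name, summed to at most 0.549 CPM in a *Pdk4*fl/fl library and to 88.2, 32.8 and 28.3 CPM in *Pdk4*SMKO libraries. Replicate 1 was thus the highest *Pdk4*SMKO library for *Mmp12*, for *C1qa* and for *Lyz2*, and the part of macrophages in the *Mmp12* counts was not tested.

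*Mmp13*, *Mmp12* and *Mmp3* are neighbours in a cluster of 10 MMP genes on chromosome 9, from 4286008 to 4734263 in the C57BL/6NJ coordinates (448256 bases). In order it holds *Mmp13*, *Mmp12*, *Mmp1b*, *Mmp3*, *Mmp1a*, *Mmp10*, *Mmp8*, *Mmp27*, *Mmp20* and *Mmp7*. *Mmp10* (stromelysin 2) and *Mmp1a* carry no gene name in the table and fell outside the rule. They were found by their row descriptions. *Mmp10* had 1 count in each *Pdk4*fl/fl library and 303, 68 and 101 in *Pdk4*SMKO libraries, at least 36.6-fold higher against the floor and at least 21.1-fold without *Pdk4*SMKO replicate 1. *Mmp27* had counts of 7, 2 and 3 against 34, 9 and 20 in *Pdk4*SMKO, too few for the test. The other 4 genes, *Mmp1b*, *Mmp1a*, *Mmp20* and *Mmp7*, had 0 counts in all 6 libraries. *Mmp1b*, at 0, lies between *Mmp12* and *Mmp3*, and *Mmp1a*, also at 0, between *Mmp3* and *Mmp10*. The rows of *Mmp12* and *Mmp1b* overlap on opposite strands.

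**Figure D2:**
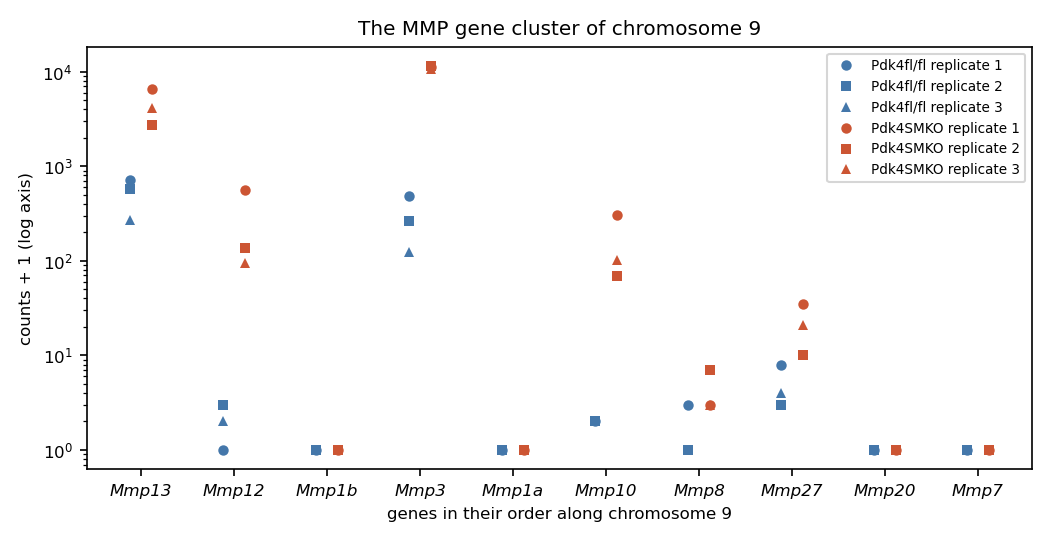
Counts plus 1 of the 10 MMP genes of the chromosome 9 cluster in each library, on a log axis, with the genes in their order along the chromosome. Blue symbols are *Pdk4*fl/fl and red symbols *Pdk4*SMKO libraries, and the symbol shape gives the replicate. *Mmp13*, *Mmp12*, *Mmp3* and *Mmp10* lie higher in all 3 *Pdk4*SMKO libraries, while *Mmp1b*, *Mmp1a*, *Mmp20* and *Mmp7* lie at 0 counts.

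Promoters of several genes of this cluster are textbook targets of AP-1, a dimer of FOS and JUN proteins. The letters TGANTCA, which read the same on both strands, were searched in RefSeq promoters of the GRCm38.p6 build, 250 bases before to 50 after each start. Of the 49 genes, 34 had an entry, with 37 starts between them, and 6 of the 37 promoters (16.2%) held a match, against 7.81% of all 32851 promoters. All 6 were in the chromosome 9 cluster, where 7 of 9 genes with an entry held one when *Mmp10* was included, and 0 of the 26 genes elsewhere did. The exceptions in the cluster were *Mmp8* and *Mmp27*. The 250 bases before the start are shown for the 4 cluster genes that were high in *Pdk4*SMKO, and a stretch of 51 bases around the match for the 3 cluster genes with 0 counts and a match, all 5′ to 3′ on the gene's strand with the match in capitals.
Mmp13, chr9:7272264-7272513, plus strand: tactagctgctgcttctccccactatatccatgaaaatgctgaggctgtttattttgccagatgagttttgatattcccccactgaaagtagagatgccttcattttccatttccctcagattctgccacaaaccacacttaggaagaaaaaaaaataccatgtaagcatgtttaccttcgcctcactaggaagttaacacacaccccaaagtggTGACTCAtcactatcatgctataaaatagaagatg
Mmp12, chr9:7347124-7347373, plus strand: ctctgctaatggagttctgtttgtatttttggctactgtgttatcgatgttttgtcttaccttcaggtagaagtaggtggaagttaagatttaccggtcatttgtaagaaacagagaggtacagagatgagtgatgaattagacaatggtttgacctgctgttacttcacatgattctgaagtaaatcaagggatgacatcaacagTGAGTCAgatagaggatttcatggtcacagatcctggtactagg
Mmp3, chr9:7445572-7445821, plus strand: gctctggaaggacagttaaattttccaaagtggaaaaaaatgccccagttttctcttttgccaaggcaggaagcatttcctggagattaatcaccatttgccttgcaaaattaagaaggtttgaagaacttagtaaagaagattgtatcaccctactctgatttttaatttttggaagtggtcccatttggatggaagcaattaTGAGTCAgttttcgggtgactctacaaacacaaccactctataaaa
Mmp10, chr9:7502092-7502341, plus strand: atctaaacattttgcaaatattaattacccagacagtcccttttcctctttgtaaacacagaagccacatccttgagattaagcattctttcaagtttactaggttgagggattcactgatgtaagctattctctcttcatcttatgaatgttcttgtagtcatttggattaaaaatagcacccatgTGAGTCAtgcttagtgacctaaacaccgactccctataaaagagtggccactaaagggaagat
Mmp1b, chr9:7388091-7388141, minus strand: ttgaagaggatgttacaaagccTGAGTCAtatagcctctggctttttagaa
Mmp20, chr9:7628114-7628164, plus strand: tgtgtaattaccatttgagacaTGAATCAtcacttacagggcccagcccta
Mmp7, chr9:7692005-7692055, plus strand: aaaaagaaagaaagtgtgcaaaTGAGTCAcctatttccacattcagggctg
Counted from the start, the match began 35 bases before that of *Mmp13*, 44 before one of the starts of *Mmp12*, 46 before that of *Mmp3* and 63 before those of *Mmp10* and *Mmp7*. The match was TGACTCA in *Mmp13*, TGAATCA in *Mmp20* and TGAGTCA in the other genes shown. A match was present both in genes with many counts and in genes with none. Of the 13 genes called higher that had an entry, 3 held a match, and no gene called lower had an entry. The ETS motif AGGAAG, searched on both strands, was in 40.5% of the 37 promoters against 35.4% of all promoters. The letters of the TATA box, TATAAA, searched on both strands, were in 27.0% against 13.6%.

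AP-1 subunit genes were read beside these promoters. Of 7 subunit genes tested, 4 fell and 0 rose in *Pdk4*SMKO, and their median log2 fold change was -2.02. Among all genes tested, 26.5% were called lower and 32.8% higher. *Jun* went from 2869 ± 515 to 37.0 ± 5.21 CPM (SD, n = 3), a log2 fold change of -6.28 (SE 0.21, edgeR adjusted p = 1.2e-08). *Junb* (log2 fold change -3.67) and *Fosl1* (-3.53) were the next in size, and *Fos* fell by 2.02 on the log2 scale, while *Fosb* (0.79), *Fosl2* (0.55) and *Jund* (-0.01) were not called. These are mRNA levels, and binding or activity of AP-1 was not measured.

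Among the membrane-type MMPs, which act at the cell surface, *Mmp14*, *Mmp17* and *Mmp24* rose, *Mmp16* fell and *Mmp15* was not called. *Mmp14* (MT1-MMP), which activates the MMP2 precursor together with TIMP2, had 281, 258 and 213 CPM in *Pdk4*fl/fl and 565, 515 and 461 CPM in *Pdk4*SMKO libraries. The groups did not overlap, but the log2 fold change of 1.03 (SE 0.14, edgeR adjusted p = 7e-05) was close to the limit of 1, and the call was lost when *Pdk4*fl/fl replicate 3 (0.92) was left out, and likewise for *Pdk4*SMKO replicate 1 (0.97). *Mmp24* (MT5-MMP) had 0.600, 1.04 and 0.757 CPM against 23.8, 24.3 and 19.3 CPM, a 28.1-fold difference (log2 fold change 4.78, SE 0.25, edgeR adjusted p = 8.3e-08). *Mmp16* (MT3-MMP) had 14.4, 14.7 and 16.6 CPM in *Pdk4*fl/fl and 5.31, 5.13 and 5.25 CPM in *Pdk4*SMKO libraries. This was a log2 fold change of -1.54 (SE 0.17, edgeR adjusted p = 1.5e-05), and no *Pdk4*SMKO library came near a *Pdk4*fl/fl one. *Mmp17* (MT4-MMP) was low, 0.303 to 1.26 against 1.33 to 3.95 CPM, and its call (log2 fold change 1.499, edgeR adjusted p = 0.027) was lost without replicate 1 (adjusted p = 0.063) or 3 (0.074) of *Pdk4*fl/fl, and without replicate 1 of *Pdk4*SMKO (0.12). *Mmp15* (MT2-MMP) had at most 2.02 CPM in a library and overlapping groups (log2 fold change 0.06, SE 0.53, adjusted p = 0.92), and *Mmp25* had 0 to 7 counts and was not tested.

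Of the remaining MMPs, *Mmp11*, *Mmp19* and *Mmp28* rose. *Mmp11* (stromelysin 3), a protease typical of stromal fibroblasts that is activated inside the cell by furin, had 2.07, 1.43 and 1.51 CPM in *Pdk4*fl/fl and 62.7, 104.5 and 96.8 CPM in *Pdk4*SMKO libraries. With a 52.7-fold difference in means it had a log2 fold change of 5.72 (SE 0.26, edgeR adjusted p = 4.1e-08), between 5.59 and 5.92 when any 1 library was left out. *Mmp19* had 5.13, 4.72 and 3.78 CPM against 32.1, 41.9 and 34.5 CPM, a log2 fold change of 2.99 (SE 0.18, edgeR adjusted p = 2.5e-07). *Mmp28* (epilysin) had 2.87, 0.879 and 0.908 CPM against 11.7, 12.9 and 11.8 CPM (log2 fold change 2.97, SE 0.39, edgeR adjusted p = 5.2e-05), with 3.75 without *Pdk4*fl/fl replicate 1. *Mmp23* was not called, at 6.21 to 8.32 and 4.91 to 6.27 CPM (log2 fold change -0.34, adjusted p = 0.17), and *Mmp21* had at most 2 counts in a library. *Mmp19*, *Mmp24* and *Mmp28* each overlap another counted gene on the opposite strand (*Tmem198b*, *BC029722* and *1700020L24Rik*). These had at most 428, 738 and 28 counts in a library, and *Mmp24* itself had at most 541. Whether reads were assigned by strand is not given in the sources used here.

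Of the inhibitors, *Timp2* and *Timp3* rose. *Timp2* (MGP_C57BL6NJ_G0019856, chromosome 11 from 126371136 to 126441159) had 1065, 1078 and 1004 CPM in *Pdk4*fl/fl and 2910.0, 3412 and 3101 CPM in *Pdk4*SMKO libraries. The spread within each genotype was small beside the gap, and the log2 fold change was 1.58 (SE 0.13, edgeR adjusted p = 1.5e-06). *Timp3*, the inhibitor that stays bound to the matrix, had 537, 472 and 514 CPM against 1737, 2074 and 1949 CPM, a 3.78-fold difference (log2 fold change 1.92, SE 0.13, edgeR adjusted p = 4.7e-07). *Timp1* had 96.5, 101.0 and 163 CPM in *Pdk4*fl/fl and 229, 209 and 201 CPM in *Pdk4*SMKO libraries. Its groups did not overlap, but the fold change was below the limit of 2 (log2 fold change 0.83, SE 0.19, edgeR adjusted p = 0.0025), and without *Pdk4*fl/fl replicate 3 it passed (1.09). *Timp4* had counts of 1, 1 and 0 against 0, 0 and 0. *Timp1*, *Timp2* and *Timp3* overlap *Syn1*, *BC100451* and *Syn3*, which had at most 190, 210 and 47 counts in a library.

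**Figure D3:**
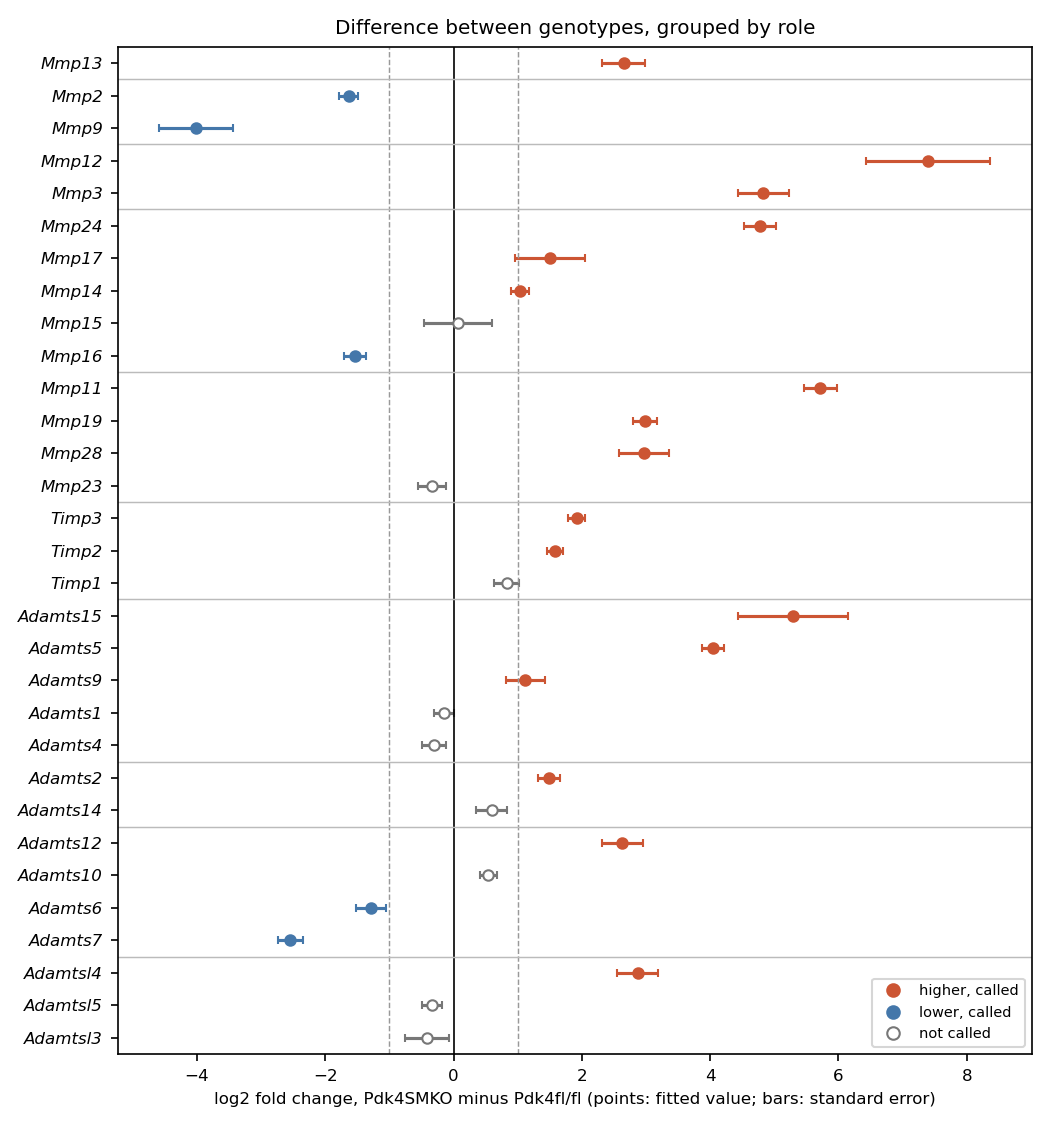
Log2 fold change of each of the 31 tested genes, *Pdk4*SMKO minus *Pdk4*fl/fl, from the edgeR fit, with bars for the standard error and horizontal lines between the roles. Dashed lines mark the limits at -1 and 1. Of the 31 genes, 17 were called higher (red), 5 lower (blue) and 9 not (open), with values from -4.02 for *Mmp9* to 7.40 for *Mmp12*.

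Levels of different genes were set side by side per kilobase of the gene length given with the counts (CPM per kb). Order, shares and ratios across genes depend on that length. In *Pdk4*fl/fl cells the order began with *Timp2* (317 CPM per kb), *Mmp2* (277), *Timp1* (135), *Timp3* (62.4) and *Mmp14* (58.7). In *Pdk4*SMKO cells it began with *Timp2* (950.4 CPM per kb), *Mmp3* (294), *Timp1* (239.6), *Timp3* (236) and *Mmp14* (120.1), and *Mmp2* (89.4) came next. *Mmp2* made up 72.0 to 78.6% of the summed level of the MMPs in *Pdk4*fl/fl and 12.6 to 15.9% in *Pdk4*SMKO libraries. *Mmp3* went the other way, from 1.53 to 4.49% of that sum to 40.9 to 49.6%, and *Mmp13* from 2.28 to 4.47% to 7.94 to 16.1%. The share of *Mmp14* differed less, 14.9 to 16.46% against 17.6 to 19.6%. The sum itself was 335 to 399.6 CPM per kb in *Pdk4*fl/fl and 611 to 672 in *Pdk4*SMKO libraries, and the groups did not overlap.

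**Figure D4:**
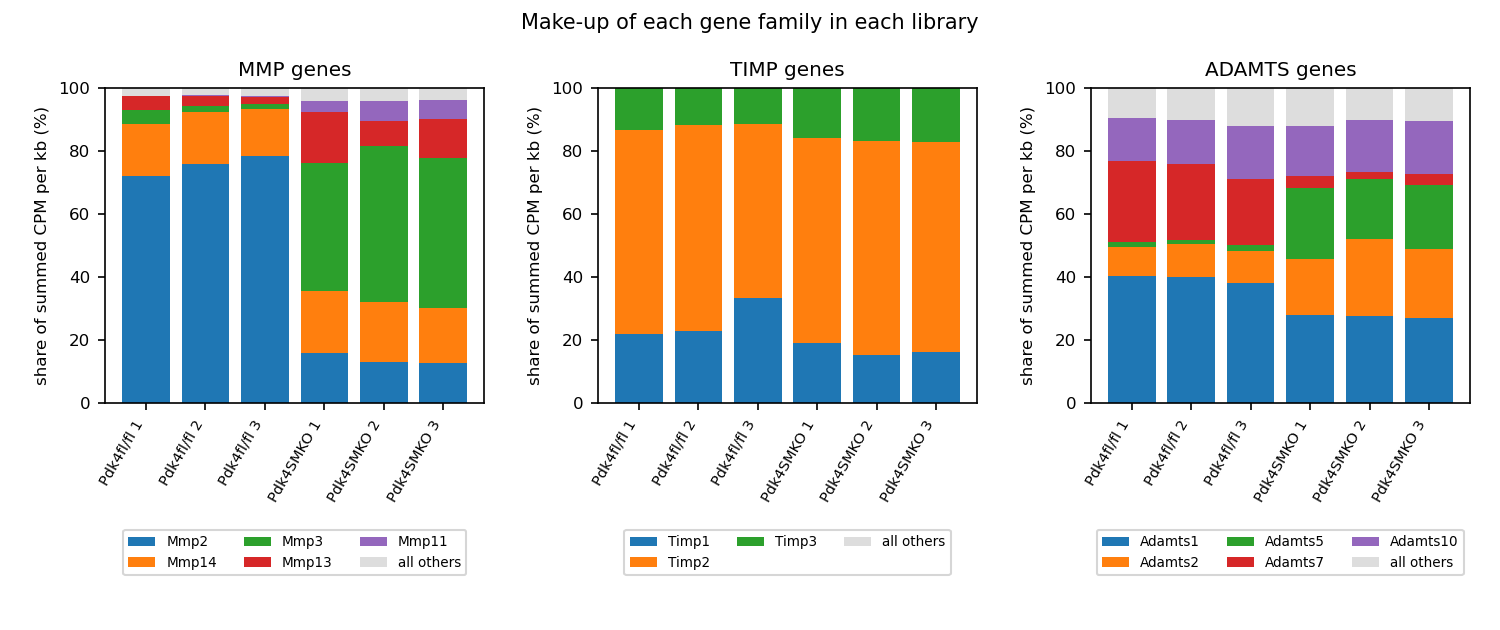
Share of each gene in the summed level of its family (CPM per kb, %), with 1 bar per library. *Mmp2* takes most of the MMP sum in the 3 *Pdk4*fl/fl libraries and *Mmp3* the largest share in the 3 *Pdk4*SMKO libraries. *Timp2* takes most of the TIMP sum in all 6. Among the ADAMTS genes, the share of *Adamts7* is smaller and those of *Adamts5* and *Adamts2* are larger in the *Pdk4*SMKO libraries.

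Ratios of genes within a library do not depend on how libraries were scaled. The summed TIMP level was 497 to 550 CPM per kb in *Pdk4*fl/fl and 1351 to 1522 in *Pdk4*SMKO libraries, and the ratio of summed MMPs to summed TIMPs was 0.608 to 0.804 and 0.420 to 0.498. Summed MMP mRNA was thus higher in *Pdk4*SMKO, and lower relative to the inhibitors, in each of the 3 libraries. The ratio of *Mmp2* to *Timp2* was 0.862 to 0.893 in *Pdk4*fl/fl and 0.0814 to 0.122 in *Pdk4*SMKO. *Mmp14* to *Mmp2* went from 0.189 to 0.229 up to 1.24 to 1.43, so the activator mRNA exceeded that of its target in every *Pdk4*SMKO library and in no *Pdk4*fl/fl library. *Mmp3* to *Timp1* went from 0.0280 to 0.165 up to 1.07 to 1.35. These are ratios of mRNA, not of protein or activity.

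**Figure D5:**
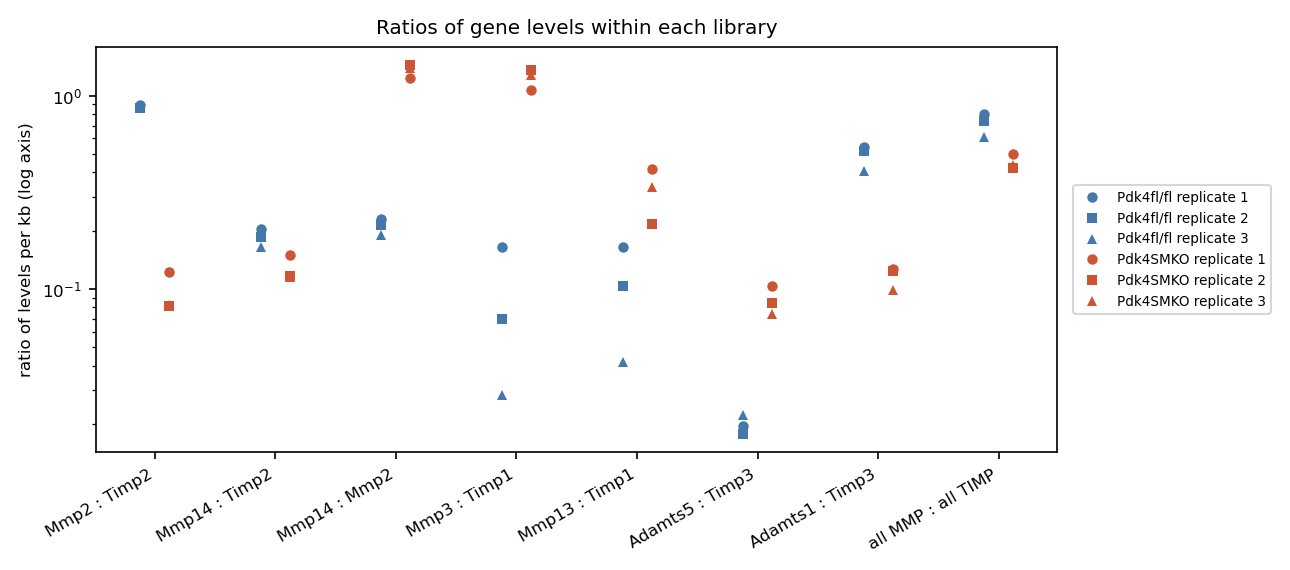
Ratios of gene levels (CPM per kb) within each library, on a log axis. Blue symbols are *Pdk4*fl/fl and red symbols *Pdk4*SMKO libraries, and the symbol shape gives the replicate. The genotypes do not overlap in any of the 8 ratios, and *Mmp14* to *Mmp2* and *Mmp3* to *Timp1* lie above 1 in the 3 *Pdk4*SMKO libraries alone.

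Among the ADAMTS genes whose products cut the proteoglycans versican and aggrecan, *Adamts5*, *Adamts9* and *Adamts15* rose and *Adamts1* and *Adamts4* were not called. *Adamts5* (aggrecanase 2) had 10.3, 8.18 and 11.2 CPM in *Pdk4*fl/fl and 176, 171 and 141 CPM in *Pdk4*SMKO libraries, a 16.46-fold difference (log2 fold change 4.05, SE 0.17, edgeR adjusted p = 2.6e-08). *Adamts1*, its neighbour on chromosome 16, had 189, 158 and 137 CPM against 144, 166 and 125 CPM, overlapping groups (log2 fold change -0.15, SE 0.15, adjusted p = 0.38). Of these neighbours 1 passed the test and the other did not, and the difference between them was not tested. *Adamts1* was the ADAMTS gene with the largest share of the summed level in both genotypes, 38.1 to 40.5% and 27.0 to 27.9%. The share of *Adamts5* went from 1.38 to 2.08% to 19.1 to 22.6%, and that of *Adamts2* from 9.16 to 10.4% to 17.8 to 24.2%. That of *Adamts7* went from 20.9 to 25.8% to 2.36 to 3.76%. *Adamts4* (aggrecanase 1) had 14.6, 12.6 and 12.6 CPM against 12.5, 11.2 and 8.63 CPM (log2 fold change -0.30, adjusted p = 0.16). *Adamts9* had 11.5, 9.94 and 9.69 CPM against 11.7, 28.8 and 27.3 CPM, and its call (log2 fold change 1.12, SE 0.30, edgeR adjusted p = 0.006) was lost without *Pdk4*SMKO replicate 2 (0.92) or 3 (0.97). Replicate 1 of *Pdk4*SMKO lay at the level of *Pdk4*fl/fl for this gene. *Adamts15* had counts of 0, 1 and 4 against 35, 147 and 98 in *Pdk4*SMKO (fitted log2 fold change 5.29, SE 0.85, edgeR adjusted p = 0.00023), with 6.94 without *Pdk4*fl/fl replicate 3.

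Of the procollagen-processing enzymes, *Adamts2* rose. It had 75.5, 72.8 and 64.1 CPM in *Pdk4*fl/fl and 162, 255 and 178 CPM in *Pdk4*SMKO libraries (log2 fold change 1.49, SE 0.17, edgeR adjusted p = 2.3e-05). *Adamts14* had 9.93, 11.4 and 10.1 CPM against 22, 14.3 and 11.2 CPM, overlapping groups and a fold change below the limit (log2 fold change 0.60, SE 0.24, edgeR adjusted p = 0.043). *Adamts3* had at most 7 counts in a library.

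Of the other ADAMTS genes, *Adamts7* and *Adamts6* fell and *Adamts12* rose. *Adamts7*, whose product cuts cartilage oligomeric matrix protein and thrombospondin-1 and which has been tied to coronary artery disease, had 142, 112 and 88.6 CPM in *Pdk4*fl/fl and 23.0, 16.7 and 19.0 CPM in *Pdk4*SMKO libraries. All 3 *Pdk4*SMKO values were far below the *Pdk4*fl/fl values, a 5.85-fold difference (log2 fold change -2.55, SE 0.20, edgeR adjusted p = 1.1e-06). *Adamts12*, its closest relative in the family, went the other way, with 2.27, 1.21 and 2.57 CPM against 15.8, 12.1 and 8.98 CPM (log2 fold change 2.63, SE 0.32, edgeR adjusted p = 3.2e-05). *Adamts6* had 8.73 to 10.6 CPM against 3.19 to 4.79 CPM (log2 fold change -1.29, SE 0.23, edgeR adjusted p = 0.00047). *Adamts10*, whose product acts on fibrillin microfibrils, had 66.1, 56.4 and 62.1 CPM against 85.7, 101.3 and 81.2 CPM, groups that did not overlap and a fold change below the limit (log2 fold change 0.54, SE 0.13, edgeR adjusted p = 0.0032). *Adamts7* overlaps *Tbc1d2b* on the opposite strand, which had up to 4741 counts in a library.

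Of the ADAMTS-like genes, *Adamtsl4* rose. Its product binds fibrillin-1, and it had 12.7, 11.8 and 6.51 CPM in *Pdk4*fl/fl and 109, 69.0 and 50.2 CPM in *Pdk4*SMKO libraries (log2 fold change 2.87, SE 0.32, edgeR adjusted p = 1.4e-05). *Adamtsl5* had 91.1, 106 and 89.5 CPM against 92.2, 68.7 and 65.7 CPM, and its groups overlapped (log2 fold change -0.34, SE 0.15, adjusted p = 0.063). *Adamtsl3* had 55.9, 42.9 and 45.8 CPM against 16.0, 54.8 and 37.6 CPM (log2 fold change -0.42, SE 0.34, adjusted p = 0.28). *Pdk4*SMKO replicate 1 stood apart, below every other library.

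The 18 genes below the limit on counts included *Mmp27*, *Mmp8*, *Mmp21*, *Mmp25* and *Timp4* above. *Adamts18*, *Adamts19*, *Adamts20*, *Mmp1b*, *Mmp7* and *Mmp20* had 0 counts in all 6 libraries. *Adamts13*, the von Willebrand factor protease, had counts of 16, 2 and 2 against 2, 2 and 0 in *Pdk4*SMKO, and *Adamts16* had 1, 2 and 7 against 0, 0 and 0. *Adamts3*, *Adamts8*, *Adamts17*, *Adamtsl1* and *Adamtsl2* had at most 7 counts in a library. When all genes with a count entered the fit, *Mmp27* was called higher (log2 fold change 1.92, edgeR adjusted p = 0.0097), and *Adamts13* (-2.63, adjusted p = 0.033) and *Adamts16* (-5.07, adjusted p = 0.015) lower, from counts of this size.

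Genes around these proteases were read from lists of the pathway. Counts of calls in this and the next paragraph stand beside 32.8% higher and 26.5% lower among all genes tested. A call in itself therefore does not set a gene of these lists apart. Some genes passed the limit on counts through 1 genotype alone and could be called in that direction only. Among them were *Pcsk6* and *Adam23* through *Pdk4*SMKO and *Mep1a* through *Pdk4*fl/fl. Of 11 genes of MMP activation and the plasminogen system, 10 were tested, 4 were higher and 1 lower, and their median log2 fold change was 0.56. The proprotein convertase *Pcsk6* (6.91) and the protease inhibitor *Serpine2* (3.56) rose and *Plat*, the tissue plasminogen activator, fell (-1.87), while *Furin* was not called (0.38, adjusted p = 0.2) and *Plg* had 0 counts. Of 12 other inhibitors, receptors and inducers, 8 were tested, 3 higher and 3 lower. *Reck*, a membrane-bound inhibitor of MMPs, rose from 7.51 ± 0.363 to 48.2 ± 5.92 CPM (SD, n = 3), with a log2 fold change of 2.68 (SE 0.15, edgeR adjusted p = 1.4e-07). The syndecan *Sdc1* rose (3.54) and *Cd44*, a hyaluronan receptor that docks MMPs at the cell surface, fell (-2.83).

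Among 19 matrix substrates, 16 were tested, 12 higher and 3 lower, and the median log2 fold change was 2.44. *Fbln1* (6.14), *Col3a1* (5.14) and *Fbn1* (3.54) were the largest that rose at 10 CPM or more, and *Fbln1* had 7.45 without *Pdk4*fl/fl replicate 2, the only one of its group with more than 2 counts. The 3 that fell were *Eln*, the elastin gene (log2 fold change -2.25), *Acan*, the aggrecan gene (-4.11), and *Vwf* (-1.13). *Eln* had a mean of 14.9 ± 3.34 CPM in *Pdk4*fl/fl and 3.09 ± 2.91 CPM in *Pdk4*SMKO (SD, n = 3). Without *Pdk4*SMKO replicate 1, which held 147 counts of *Eln* against 30 and 27, its log2 fold change was -3.39, and that of *Acan* was -4.91. Of 15 ADAM, astacin and meprin proteases, 13 were tested, 9 higher and 2 lower, with a median of 1.69. *Adam23* was at 0 in every *Pdk4*fl/fl library and at 232, 278 and 216 counts in *Pdk4*SMKO libraries, and *Adam22* (5.20) and the procollagen C-proteinase *Tll1* (3.66) also rose. *Adam17*, the sheddase of tumour necrosis factor, fell from 300.5 ± 17.95 to 76.8 ± 7.29 CPM (SD, n = 3), a log2 fold change of -1.97 (SE 0.12, edgeR adjusted p = 2.6e-07), and *Mep1a* fell as well (-6.18, and -7.02 without *Pdk4*SMKO replicate 3). The values of *Eln*, *Acan*, *Vwf*, *Furin*, *Adam17* and *Mep1a* were chosen for print after they were seen.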

How the data were processed

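RNA of 6 MASMC libraries was sequenced as paired-end reads of 150 bases, per the study's methods. The values the authors deposited are raw counts per gene, in 1 table with a column for each library. The labels name GRCm39, whereas 41096 of the 41721 gene identifiers are those of the C57BL/6NJ annotation. The aligner, counting program and use of strand are not given in the sources used here. The study's methods and the labels name different library kits.

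Groups follow the genotype label of each sample. Counts were filtered (filterByExpr), scaled by TMM and tested by the quasi-likelihood test of edgeR 4.0.16 (limma 3.58.1, R 4.3.3), with Benjamini-Hochberg adjustment over all genes tested. SE is the log2 fold change over the root of F. The fitting code was also run on simulated counts in which few genes changed. In these data most tested genes were called, so that run does not show how the scaling behaves here. Alternatives were DESeq2 1.42.0, other scalings, filters and thresholds, protein-coding genes alone, a replicate block and each library left out. Genes and lists were chosen with earlier results of these data known. Every tested family gene is named, with values per library for those at 10 CPM or more in the higher genotype and for *Timp1* to *Timp4*, *Mmp2*, *Mmp9*, *Mmp12* and *Mmp14*, and up to 3 of the largest calls of each list at 10 CPM or more. Values per library of other genes were added after they were seen. *Adamts4*, *Adamts5*, *Adamts6*, *Adamts7*, *Adamts8*, *Adamts10*, *Adamts15*, *Adamts16*, *Adamts19*, *Adamtsl1*, *Mmp2*, *Mmp9*, *Mmp16*, *Mmp17* and *Mmp19* had no promoter entry. Floors and SDs cover counting error and the spread between libraries alone.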

Additional observations from a re-analysis of the deposited data

How the results depend on the processing

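Of the 49 genes, 5 were called lower and 17 higher in the fit reported. The counts were the same with RLE scaling, DESeq2, protein-coding genes alone or an unadjusted p under 0.05. They were 5 and 18 with upper-quartile scaling (22.9% lower and 36.4% higher among all genes tested), 5 and 20 with no fold limit (37.1% and 42.0%), and 3 and 20 with library size alone (17.0% and 43.9%). Of 43 family genes tested with no filter 7 were lower and 18 higher (18.1% and 23.7%), and of 25 tested when every library had to hold at least 10 counts, 4 and 13 (24.6% and 28%). With any 1 library left out, 5 were lower and 15 to 17 higher, and over all genes 3682 to 3908 were lower and 4630.0 to 4825 higher. Scaling by library size alone moved the median log2 fold change of all genes by 0.60, and gave 2390.0 lower and 6184 higher genes, against 3733 and 4616. The share of calls that were higher was 72.1% there and 55.3% in the fit reported. With it, *Mmp16* (-0.93) and *Adamts6* (-0.68) lost their calls, and *Timp1* (1.44), *Adamts10* (1.14) and *Adamts14* (1.21) gained one. The sign turned for genes not called in the fit reported: *Adamts1* (0.45), *Adamtsl5* (0.27), *Adamtsl3* (0.18), *Adamts4* (0.30) and *Mmp23* (0.26), all below that shift. The cause of these moves beyond the scaling itself was not tested. Upper-quartile scaling moved the median by 0.21, turned *Adamts1* (0.058) and took *Timp1* past the limit (1.04). *Mmp15* turned with the replicate block (-0.064), and it ranged from -0.65 (without *Pdk4*SMKO replicate 1) to 0.35 with 1 library left out, at -0.23 without the first *Pdk4*fl/fl library. Deviations of libraries sharing a replicate number correlated at 0.0396, 0.0604 and 0.176, and those of libraries with different numbers at -0.131 to 0.0533. With 3 libraries per genotype these values cannot decide whether the numbers mark pairs. The fit reported did not take them as pairs. With the replicate block, 5 and 17 of the 49 genes and 3704 and 4577 of all genes were called. At this depth, genes under the floor could not be compared.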
